A study of Mus musculus with 12 samples.

Results

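The genes of the collagen chains were described in RNA sequencing counts of dissociated mouse brain. A gene was taken as a collagen gene when its symbol had the form Col, a type number, a and a chain number, and 44 of the 41388 counted genes met this rule. By the structure of the protein they were placed in 8 classes: 11 fibrillar, 9 FACIT (fibril-associated collagens with interrupted triple helices), 6 basement membrane, 6 beaded filament, 4 transmembrane, 3 short-chain network and 2 multiplexin genes, and 3 others, among them the anchoring fibril chain Col7a1.

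The 12 libraries came from 8 mice on a C57BL\6 background that carried the labelled alleles Bmal fl/fl, so that the controls held the floxed gene too. Mice labelled KO were Cre+ for ALDH1L1-CreERT2, a Cre recombinase that tamoxifen switches on in cells using the Aldh1l1 promoter, chiefly astrocytes; mice labelled WT were Cre-. All mice, controls included, were 2 months old when gavaged with tamoxifen (a daily 2 mg, 5 days in all) and 20 months old when the brains were removed. After collagenase digestion, cells were bound to beads through the astrocyte surface antigen ACSA-2 (astrocyte fraction; 4 mice labelled KO, numbers 60, 62, 73 and 132, and 4 labelled WT, numbers 56, 57, 64 and 78), and the unbound cells were the flowthrough (mice 60 and 132 labelled KO, mice 56 and 64 labelled WT). The labels name no separate cultures or batches, and each library of a fraction came from its own mouse.

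Collagens are secreted or membrane proteins whose chains wind in threes into a triple helix. Fibrillar collagens form the cross-striated fibrils of connective tissue, FACIT collagens sit on the surface of those fibrils, and type IV collagens build the sheet-like network of basement membranes. In the brain, collagen is found mainly in the basement membranes of vessels, in the meninges and in the choroid plexus, where endothelial cells, pericytes, fibroblasts and epithelial cells make most of it, while some collagens, Col19a1 and Col25a1 among them, are made by neurons.

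Total counts ran from 38.7 to 51.6 M per library (M, 1000000 counts), and the collagen genes together took 3012 to 13846 of them, which is 0.00617% to 0.0306%. The whole-gene count of the targeted gene Arntl (Bmal1), which includes exons outside any deleted part, was 401, 428, 645 and 628 in the astrocyte libraries labelled KO and 360, 239, 242 and 374 in those labelled WT, so it did not check the labels. All 10 astrocyte markers examined were called higher in the astrocyte fraction (edgeR, the test used for all comparisons below). Aldh1l1, for example, had 205 ± 68.2 CPM (SD, n = 8) there and 64.9 ± 11.9 (SD, n = 4) in the flowthrough. CPM are counts per 1000000 counts of a library, and the marker levels given here are scaled by the library's TMM factor. The astrocyte fraction was not free of other cells: all 10 neuron markers, 8 of 10 markers of oligodendrocyte precursors and 5 of 10 of oligodendrocytes were also called higher in it, and the summed oligodendrocyte level there (20395 to 38522 CPM) reached above the summed astrocyte level (10949 to 24923 CPM). All 10 markers of choroid plexus epithelium, of endothelium and of microglia were called lower in it, 5 of 10 of border macrophages, 4 of 10 of mural cells, 4 of 10 of fibroblasts (1 higher) and 0 of 10 of ependymal cells. Of all genes tested, 24.8% were called higher and 24.4% lower. The astrocyte library KO 73 stood apart, with the lowest summed astrocyte and neuron markers of the 8 and the highest of microglia, border macrophages, ependymal cells and choroid plexus. The female-type transcript Xist had 2411 counts in the astrocyte library of mouse 73 and 1133 in that of mouse 78, against at most 10 in the other libraries.

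Collagen transcripts were present but scarce in both fractions. Summed by class per kilobase, the mean level was highest for fibrillar genes in astrocyte and for short-chain network genes in flowthrough libraries. All levels below are CPM scaled by the TMM factors of the 12 libraries, and levels of different genes are compared per kilobase of exon. Per kilobase and averaged over the 12 libraries, the highest were Col8a1 (3.79 CPM per kb), a type VIII chain of the hexagonal lattice under endothelia and in vessel walls, and Col9a3 (2.32), a FACIT chain of type IX collagen. Col8a2 (2.25), the other type VIII chain, Col6a1 (2.09), a chain of the beaded filaments that join fibrils to basement membranes, and Col23a1 (1.81), a transmembrane collagen, came next. The main chains of type I and type IV collagen followed, with Col1a2 at 1.48, Col4a1 at 1.28, Col1a1 at 0.912 and Col4a2 at 0.882 CPM per kb. The lowest were Col24a1 (0.0202), Col22a1 (0.0218) and Col10a1 (0.0230), the last the hypertrophic cartilage collagen, with 0 counts in 4 libraries and at most 8 in any.

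**Figure D1:**
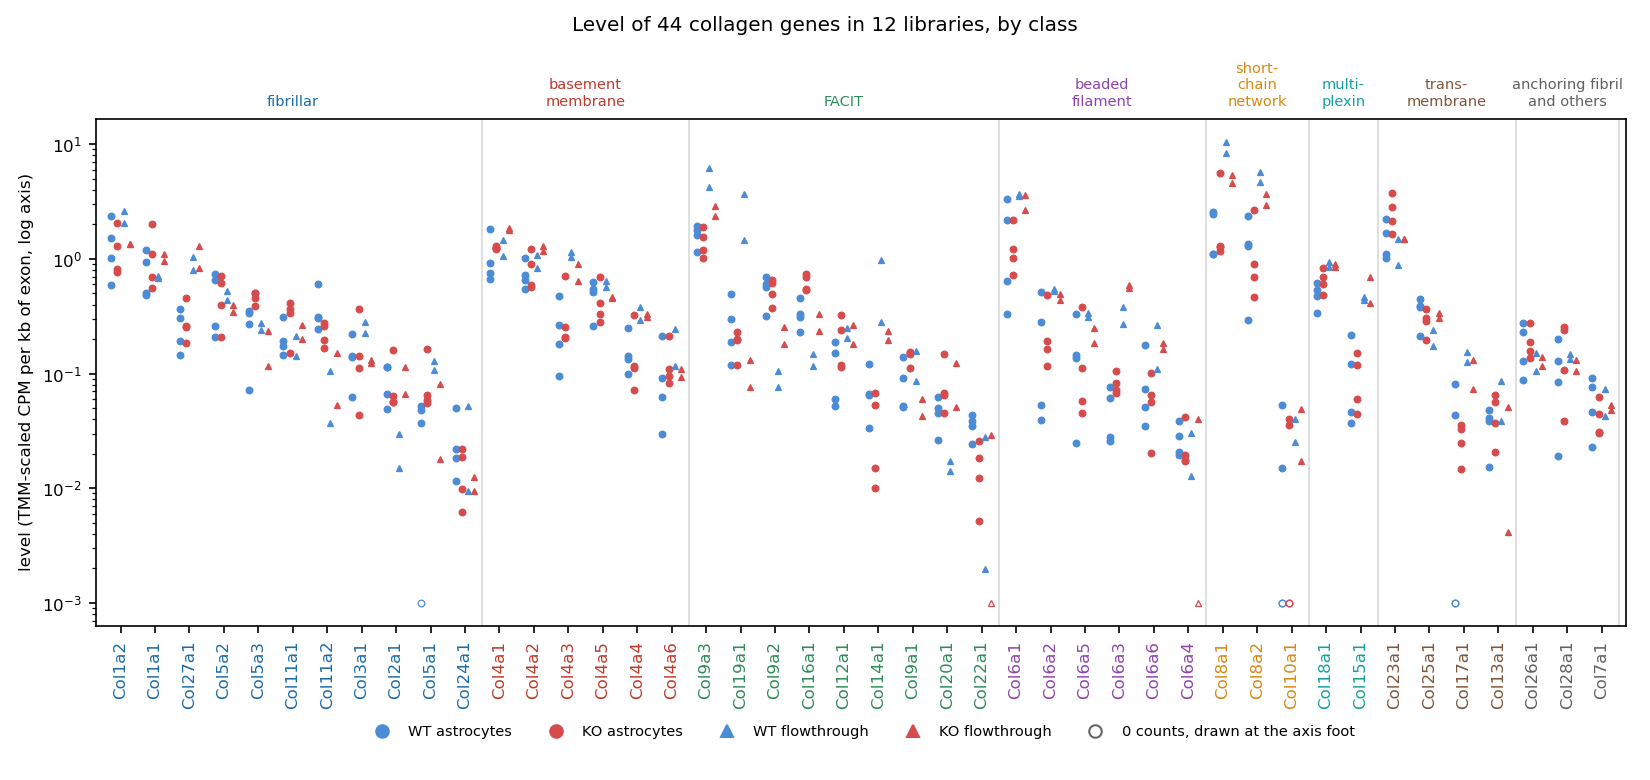
Level of each of the 44 collagen genes in each library (y axis, TMM-scaled CPM per kb of exon, log scale), grouped by class and ordered by mean level; circles are astrocyte and triangles flowthrough libraries, blue WT and red KO, and open symbols at the foot are libraries with 0 counts. Col8a1 stands at the top and Col24a1 at the bottom of the range. The flowthrough triangles lie above the circles for Col8a2, Col9a3 and Col6a3. For Col8a1 the circle of astrocytes KO 73 is an exception and lies above both KO triangles.

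Summed over all collagen genes, the level was 72.8 to 197 CPM in the 8 astrocyte libraries and 184 to 274 CPM in the 4 flowthrough libraries. The single overlap was the astrocyte library KO 73 (197 CPM), which lay above the flowthrough library KO 60 (184 CPM). The mitochondrial share of counts moved with this level: it was 12.6% to 21.4% in astrocyte and 4.66% to 12.7% in flowthrough libraries. Among astrocyte libraries the share was highest, 21.4% and 21.3%, in WT 78 and WT 57, which had the least collagen, and lowest in KO 73, which had the most. Its part in the collagen values was not tested. The classes took different shares of the collagen level in the fractions, as sums of CPM per kb. Fibrillar genes made up 21.9% ± 2.22 (SD, n = 8) of it in astrocyte libraries and 14.1% ± 1.58 (SD, n = 4) in flowthrough libraries, and transmembrane genes 13.1% ± 4.42 and 5.24% ± 1.79; the share of neither class overlapped between the fractions. Short-chain network genes made up 16.2% ± 5.75 and 31.6% ± 4.44, with 1 astrocyte library, KO 73 at 27.9%, inside the flowthrough range of 26.6% to 36.7%. The summed levels of fibrillar and of transmembrane genes, unlike their shares, overlapped between the fractions. Fibrillar genes had a mean of 4.22 CPM per kb in astrocyte and 4.97 in flowthrough libraries, and transmembrane genes 2.44 and 1.78. Basement membrane genes (15.6% ± 2.12 and 13.2% ± 3.02) and FACIT genes (17.8% ± 4.52 and 17.3% ± 5.05) took overlapping shares. These flowthrough means pool 2 libraries of each label that stood apart. FACIT shares were 21.0% to 22.2% in flowthrough WT and 12.7% to 13.1% in flowthrough KO. Basement membrane shares were 10.4% to 10.8% in flowthrough WT and 15.7% to 15.9% in flowthrough KO.

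The first comparison asked how the captured astrocytes differed from the cells left behind. Most collagen genes that differed were lower in the astrocyte fraction: of 43 tested, 13 were called lower and 3 higher at an adjusted p under 0.05 (edgeR's quasi-likelihood test with Benjamini-Hochberg adjustment over all genes). Of all 20997 genes tested, 49.2% were called, 24.4% lower and 24.8% higher, so collagen genes were called no more often than genes at large, and among them the calls leaned lower. The fractions did not overlap for 9 of the 43, 2 higher and 7 lower, beside 29.2% of all genes. The median log2 fold change, astrocytes minus flowthrough, was -0.27 over the collagen genes and 0.00 over all genes tested. In bulk RNA, fewer cells of a type and less RNA per cell cannot be told apart.

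The 3 genes higher in the astrocyte fraction were a FACIT pair and a minor fibrillar chain. Col9a2, a type IX chain, ranged from 0.979 to 2.17 CPM (median 1.82) in the 8 astrocyte libraries and was 0.326, 0.237, 0.781 and 0.559 CPM in flowthrough WT 56, WT 64, KO 60 and KO 132. The fractions did not overlap, and the log2 fold change was 1.93 ± 0.30 (SE; adjusted p = 0.00038). Col11a2, a chain of type XI collagen that nucleates fibrils, ranged from 1.14 to 4.16 CPM (median 1.83) in astrocyte libraries and was 0.253, 0.712, 1.03 and 0.361 CPM in the same flowthrough order, again without overlap (1.76 ± 0.41; adjusted p = 0.0041). Col16a1, a FACIT collagen of many connective tissues, ranged from 1.55 to 4.98 CPM (median 3.33) and was 0.778, 1.01, 2.23 and 1.59 CPM in flowthrough. Its ranges overlapped because both flowthrough libraries labelled KO lay within the astrocyte range (1.24 ± 0.23; adjusted p = 0.0011).

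The genes lower in the astrocyte fraction came from 7 of the 8 classes and were led by Col6a3, the long chain of type VI collagen. Col6a3 had 0.306 to 1.25 CPM (median 0.828) in astrocyte libraries and 3.22, 4.55, 6.65 and 7.10 CPM in flowthrough WT 56, WT 64, KO 60 and KO 132. The fractions stood well apart, 6.93-fold (log2 -2.79 ± 0.28; adjusted p = 3.1e-05). Col14a1, a FACIT that binds decorin on fibrils, had 0.0711 to 0.846 CPM (median 0.417) and 1.97, 6.92, 1.64 and 1.39 CPM, without overlap (-2.84 ± 0.49; adjusted p = 0.00068). Col15a1, a multiplexin of vessel basement membranes, had 0.235 to 1.38 CPM (median 0.570) and 2.97, 2.77, 2.61 and 4.45 CPM, without overlap (-2.32 ± 0.45; adjusted p = 0.0014). The other multiplexin, Col18a1, whose end fragment is endostatin, differed less but also without overlap (-0.64 ± 0.19; adjusted p = 0.016).

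Type VIII and the fibrillar Col27a1 were also low in the astrocyte fraction. Col8a1 had 5.60 to 28.7 CPM (median 6.60) in astrocyte libraries and 43.3, 53.6, 27.4 and 23.5 CPM in flowthrough libraries. The fractions overlapped through a single library, astrocytes KO 73, whose 28.7 CPM was more than 2-fold above the next astrocyte library and above both flowthrough libraries labelled KO (-1.74 ± 0.42; adjusted p = 0.0052). Col8a2 followed (-1.72 ± 0.49; adjusted p = 0.012), with its highest astrocyte value, 11.9 CPM, again in KO 73, below the lowest flowthrough value of 13.2 CPM. Col27a1, a fibrillar chain of cartilage, had 1.88 to 5.89 CPM (median 3.35) and 10.4, 13.6, 10.9 and 16.9 CPM, without overlap (-1.88 ± 0.28; adjusted p = 0.00028).

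All 6 basement membrane chains lay below 0, and 2 passed the test. Col4a3 and Col4a4, which with Col4a5 form the network of specialised membranes such as that of the kidney filter, were called lower (-1.63 ± 0.41, adjusted p = 0.0067, and -1.08 ± 0.37, adjusted p = 0.029, the latter called in 5 of 12 fits with 1 library left out). Col4a1 and Col4a2, the chains of nearly all basement membranes, were not called, with -0.41 ± 0.24 (adjusted p = 0.18) and -0.49 ± 0.23 (adjusted p = 0.10, and 0.035 with mouse as a replicate block), and neither were Col4a5 (-0.21 ± 0.28) and Col4a6 (-0.27 ± 0.47). No difference between chains was tested. The remaining genes called lower were Col9a3 (-1.29 ± 0.20), Col19a1 (-1.18 ± 0.38), the beaded filament chain Col6a6 (-1.33 ± 0.47) and Col17a1 (-2.01 ± 0.74), the collagen of epidermal hemidesmosomes, with at most 49 counts in a library. For Col19a1 the labels went opposite ways. Its log2 difference within a mouse, astrocytes minus flowthrough, was -4.80 and -2.87 in mice 56 and 64, labelled WT. In mice 60 and 132, labelled KO, it was 0.76 and 0.57. Of 11 fibrillar genes, 9 were not called, among them Col1a1 (0.13 ± 0.35) and Col1a2 (-0.44 ± 0.34), and none of Col7a1, Col26a1 and Col28a1 was called.

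**Figure D2:**
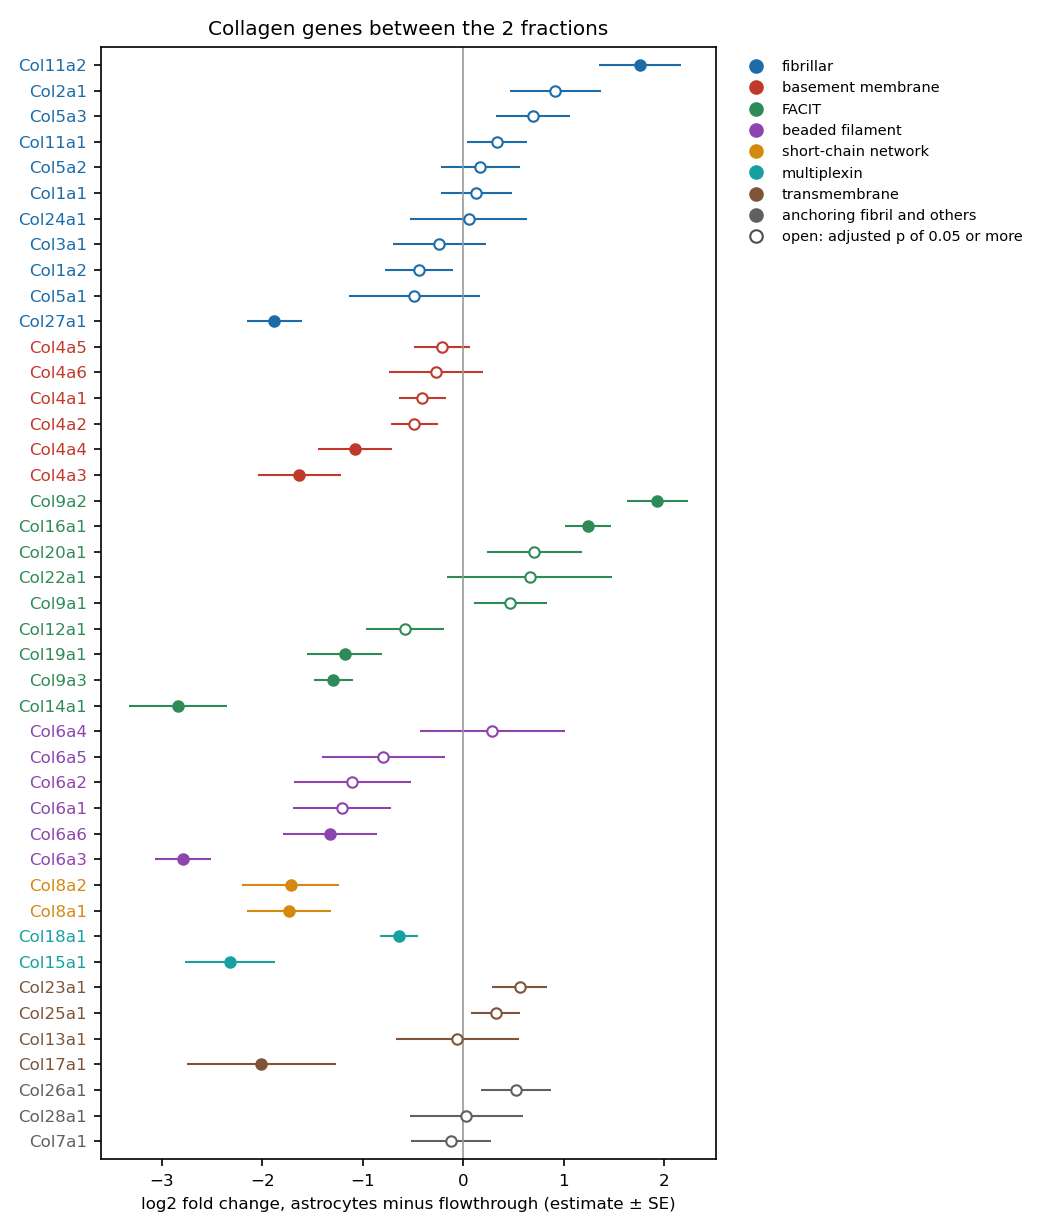
Log2 fold change of the 43 tested collagen genes, astrocytes minus flowthrough (x axis; points are estimates and bars their SE, edgeR over 12 libraries), coloured by class, with filled points for adjusted p under 0.05. Col9a2, Col11a2 and Col16a1 are the filled points to the right, and Col14a1 and Col6a3 reach furthest left.

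In the 4 mice that gave both fractions, 22 of the 43 collagen genes (51.2%) lay on the same side in 4 of 4 mice, 4 higher and 18 lower in astrocytes, beside 63.7% of all genes. These 8 libraries also entered the test, so this is no separate support for its calls. Fitted on the 8 libraries alone, 19 collagen genes and 48.1% of all genes were called, with Col6a6 lost and Col5a3, Col6a1, Col6a2 and Col6a5 gained. With mouse as a replicate block in the same 8 libraries, 21 collagen genes and 53.2% of all genes were called; the 4 higher and 17 lower included all 16, and the 5 gained were Col6a1, Col6a2, Col6a5, Col4a2 (lower) and Col23a1 (higher). Some calls rested on few libraries: of the 12 fits that each left out 1 library, Col17a1 was called in 4, Col6a6 in 4 and Col4a4 in 5, with adjusted p up to 0.148, 0.190 and 0.091. Col18a1 lost its call without flowthrough WT 64 or KO 132 (adjusted p = 0.055 and 0.056), and Col19a1 without flowthrough WT 56 or KO 60 (adjusted p = 0.15 and 0.092). Within the WT label alone 14 collagen genes were called (background 37.9% of all genes) and within the KO label 7 (background 23.3%), the latter being Col6a3, Col9a2, Col9a3, Col14a1, Col15a1, Col16a1 and Col27a1, which were also called within WT. These counts moved with single libraries: without flowthrough WT 56 or WT 64, 7 and 6 genes were called within WT, and within KO 1 without flowthrough KO 132, 4 without astrocytes KO 60 or KO 132 and 12 without astrocytes KO 73.

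Markers of other cells moved with these collagen differences, and their part in them was not tested. The summed level of the 10 choroid plexus markers was 1824 to 9420 CPM in astrocyte libraries and 19506 to 40424 CPM in flowthrough libraries. For endothelium the ranges were 179 to 529 and 485 to 954 CPM, for fibroblasts 95.7 to 377 and 311 to 422 CPM, and for mural cells 329 to 972 and 754 to 855 CPM, and no marker was at 0 in all libraries of a fraction. Among the 8 astrocyte libraries, the summed collagen level rose with the markers of most other non-neural cells and fell with those of astrocytes and neurons. Of 11 marker lists, 9 passed after adjustment over the lists (exact permutation tests of Pearson's r on log2 levels). Mural (r = 0.918, exact permutation p = 0.000818, adjusted 0.00621; Spearman's rho = 0.952, p = 0.00114) and fibroblast markers (r = 0.902, p = 0.00174 by the same permutation, adjusted 0.00621; rho = 0.976, p = 0.000397) stood beside endothelial (r = 0.894, rho = 0.905), ependymal (0.892 and 0.857), microglial (0.879 and 0.905), border macrophage (0.867 and 0.905) and choroid plexus markers (0.776 and 0.857), with adjusted exact permutation p of 0.0272 or less. These lists moved together, so their relations are not separate results. KO 73 had the highest choroid plexus, ependymal, microglial and border macrophage sums. WT 78 had the lowest endothelial, mural, fibroblast, ependymal and microglial sums. Neuron (r = -0.851, rho = -0.762) and astrocyte markers (r = -0.783, rho = -0.786) went the other way, with adjusted exact permutation p of 0.0178 or less. Without the 2 libraries farthest from the median of each list's level, r was 0.731 to 0.934 for the positive lists and -0.847 and -0.845 for neuron and astrocyte markers. Oligodendrocyte precursors (r = 0.696, rho = 0.619, and -0.03 without the 2 farthest) and oligodendrocytes (r = -0.347, rho = -0.595) did not pass, with adjusted exact permutation p of 0.0533 and 0.419. The labels name no batch, and the 4 libraries of each label are too few for a value of their own.

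Transcripts of chains that wind into the same molecule did not always keep the same ratio between the fractions. In bulk RNA the transcripts of a chain pair need not come from the same cells. Of 8 chain ratios, each from counts per kb in the same library, 1 differed between the fractions after adjustment. Col9a2 to Col9a3, chains of type IX collagen, stood at 0.164 to 0.526 in the 8 astrocyte libraries and at 0.0249, 0.0124, 0.106 and 0.0623 in flowthrough WT 56, WT 64, KO 60 and KO 132 (two-sided exact permutation test over libraries, p = 0.00404, which is the lowest value this design can give, and 0.0323 after adjustment for 8 ratios). The ranges did not overlap. Because 4 mice gave a library to each side, the libraries were not fully independent. In these same libraries Col9a2 was called higher and Col9a3 lower in astrocytes, so this ratio is no separate support for those calls. Col4a3 to Col4a4 (0.946 to 2.93 and 2.04 to 3.50) and Col6a3 to Col6a1 (0.0127 to 0.118 and 0.0762 to 0.209) overlapped and did not pass (adjusted p = 0.119 for both, exact permutation). Col1a1 to Col1a2, Col4a1 to Col4a2, Col4a5 to Col4a6, Col6a1 to Col6a2 and Col8a1 to Col8a2 did not pass either, with adjusted exact permutation p of 0.404 or more. No ratio passed between the labels among astrocyte libraries (adjusted exact permutation p of 0.343 or more).

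**Figure D3:**
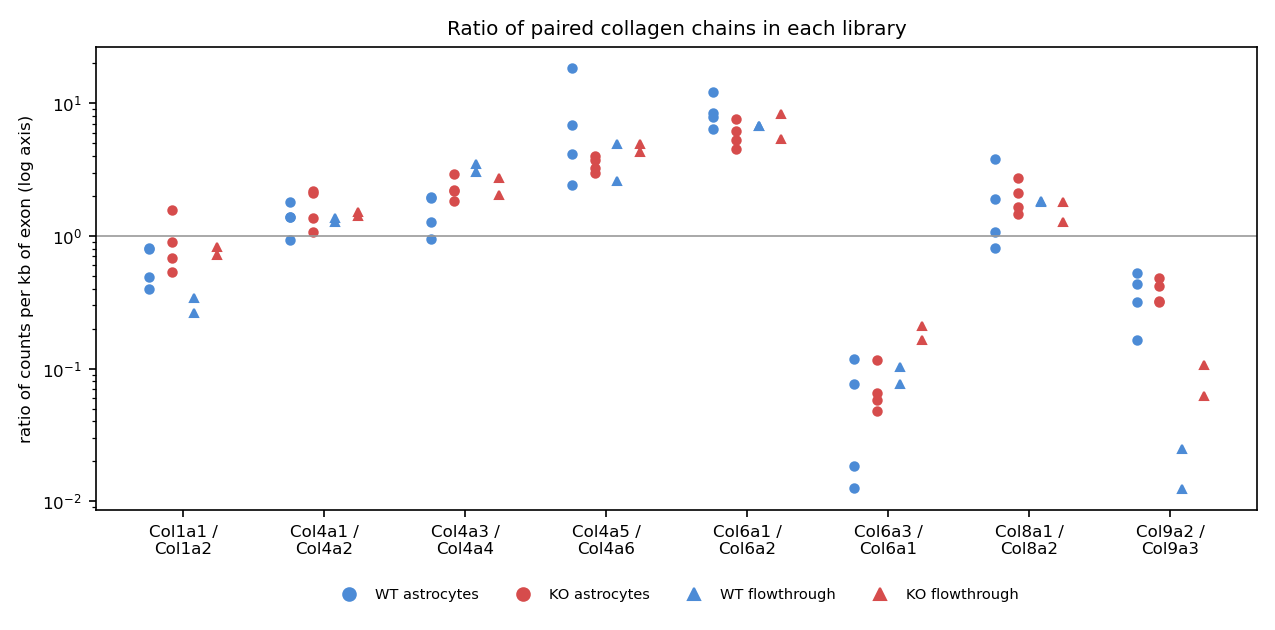
Ratio of paired collagen chains in each library (y axis, counts per kb of exon, log scale; the line marks equal levels), with circles for astrocyte and triangles for flowthrough libraries. Col9a2 to Col9a3 is the ratio whose circles, 0.164 to 0.526, lie clear of the triangles, 0.0124 to 0.106.

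Several of these chain pairs are neighbours whose starts lie close together. Whether they share control of transcription was not tested. In the files' GRCm38 coordinates, Col4a1 (chr8:11198423-11312826, minus strand) and Col4a2 (chr8:11312805-11449287, plus strand) run away from each other and their first exons overlap by 22 bases. Col4a3 (chr1:82586921-82722059, plus) and Col4a4 (chr1:82448423-82586849, minus), both called lower in the astrocyte fraction, are separated by 71 bases, and the X-linked Col4a5 and Col4a6 by 1308. The sequences below, from the RefSeq promoter table on GRCm38.p6, show how little DNA lies between the starts of the first 2 pairs. In the first, of the plus strand at chr8:11312801-11312830, capitals mark the overlap of the first exons; the second is the whole gap, on the minus strand, at chr1:82586850-82586920.
Col4a1 and Col4a2: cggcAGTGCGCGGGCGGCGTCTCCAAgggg
Col4a4 and Col4a3: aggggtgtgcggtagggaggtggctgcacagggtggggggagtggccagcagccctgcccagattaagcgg

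The second comparison asked whether collagen genes differed between the labels KO and WT among astrocyte libraries. None of the 39 tested did: 0 were called by edgeR's quasi-likelihood test and 0 by DESeq2, against 0.232% of all 18527 genes by edgeR and 0.988% by DESeq2, and 3 had an unadjusted p under 0.05, where 5.37% of all genes did. The median log2 fold change, KO minus WT, was 0.10 over collagen genes and 0.00 over all genes. By class the medians ran from -0.09 (beaded filament) to 0.25 (transmembrane), and the basement membrane median was 0.22. In that class Col4a1 was at 0.27 ± 0.30 and Col4a2 at 0.16 ± 0.30. The 95% interval of Col4a1, -0.47 to 1.002, was computed from its SE and the 6 residual degrees of freedom. Without KO 73 and WT 78 the basement membrane median was -0.40 and the short-chain network median -0.99, against 0.11 with all 8 libraries; without KO 73 alone they were -0.14 and -0.74. In 7 of the 8 classes, all but the fibrillar, leaving out 1 library changed the sign of the median, so the directions of those 7 medians rested on single libraries. The test does not show that the levels were alike.

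The collagen gene with the smallest p was Col16a1. Astrocytes KO 60, 62, 73 and 132 had 4.98, 4.69, 3.59 and 3.72 CPM, against 3.07, 1.55, 2.23 and 2.12 CPM in WT 56, 57, 64 and 78. The 4 libraries labelled KO lay above the 4 labelled WT, and the difference of 0.92 ± 0.25 (1.90-fold) missed the threshold (edgeR adjusted p = 0.41, DESeq2 adjusted p = 0.060). Of the tested collagen genes, Col16a1, Col5a3 and Col5a1 did not overlap between the labels, KO higher in each, where 4.03% of all genes did not overlap, 1.76% with KO higher. For the transmembrane Col23a1, libraries KO 60, 62, 73 and 132 had 9.48, 16.3, 12.3 and 21.4 CPM and WT 56, 57, 64 and 78 had 12.8, 6.33, 9.59 and 5.81 CPM, which overlap (0.79 ± 0.32; adjusted p = 0.83). The FACIT gene Col22a1, with 2 to 19 counts per library, was at -1.17 ± 0.52 (adjusted p = 0.91), Col11a2 at -0.70 ± 0.34 (adjusted p = 0.96) and the type V chain Col5a3 at 0.85 ± 0.42 (adjusted p = 0.96).

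In the flowthrough, 2 libraries of each label were compared, with the spread pooled over all 12 libraries. No collagen gene of 43 was called by edgeR (6 had an unadjusted p under 0.05, as did 4.63% of all genes), and 0.00476% of all genes were; DESeq2 called 1 collagen gene, Col19a1, and 0.11% of all genes. Col19a1 encodes a FACIT collagen found at basement membrane zones and in subsets of neurons. It lies on chr1:24261890-24587472, minus strand, and had 25.4 and 10.03 CPM in flowthrough WT 56 and 64 against 0.895 and 0.523 CPM in KO 60 and 132, or 1402 and 507 counts against 47 and 29. The labels stood 24.9-fold apart (log2 -4.64 ± 0.71; edgeR unadjusted p = 3.6e-05, adjusted p = 0.38; DESeq2 adjusted p = 4.2e-09), and the 2 WT libraries themselves differed by more than 2-fold. Col19a1 was singled out with this difference already known, so these values are a description.

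In the astrocyte fraction the same mice did not differ in this way. Col19a1 had 0.815, 2.05, 1.29 and 3.44 CPM in WT 56, 57, 64 and 78 and 1.59, 1.35, 1.38 and 0.824 CPM in KO 60, 62, 73 and 132, which overlap (-0.55 ± 0.44; edgeR adjusted p = 0.995). The libraries above 4 CPM were thus the flowthrough libraries of mice 56 and 64, whose own astrocyte libraries had 0.815 and 1.29 CPM. The difference between the fractions in the label effect was 4.08 ± 0.80 on the log2 scale (edgeR adjusted p = 0.93; DESeq2 adjusted p = 0.0019). In this test of the difference edgeR called 0 collagen genes and 0.0% of all genes (4 collagen genes and 3.94% of all genes had an unadjusted p under 0.05), and DESeq2 called Col19a1 and 0.0381% of all genes. Col9a1, the type IX chain that ends 9205 bases from Col19a1 on the opposite strand, had 24 and 40 counts in flowthrough WT and 16 and 12 in KO (-1.23 ± 0.59; adjusted p = 1). Summed neuron markers were 390 and 496 CPM in flowthrough WT and 507 and 1045 CPM in KO, and choroid plexus markers 34237 and 40424 against 19506 and 23542 CPM; their part in the Col19a1 values was not tested.

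The next smallest p-values in the flowthrough belonged to genes that went both ways. Col20a1, a FACIT gene, was at 2.42 ± 0.80, with 4 and 3 counts in WT and 27 and 12 in KO, Col16a1 at 1.09 ± 0.37, Col9a3 at -0.98 ± 0.33, the cartilage fibril gene Col2a1 at 1.99 ± 0.75 and Col9a2 at 1.24 ± 0.47, all with an adjusted p of 1. Col16a1 was higher in both flowthrough libraries labelled KO, 2.23 and 1.59 CPM, than in the 2 labelled WT, 0.778 and 1.01 CPM. In the flowthrough, 10 collagen genes lay higher and 17 lower in KO without overlap, or 27 of 43, beside 33.6% of all genes, 17.1% higher and 16.5% lower.

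**Figure D4:**
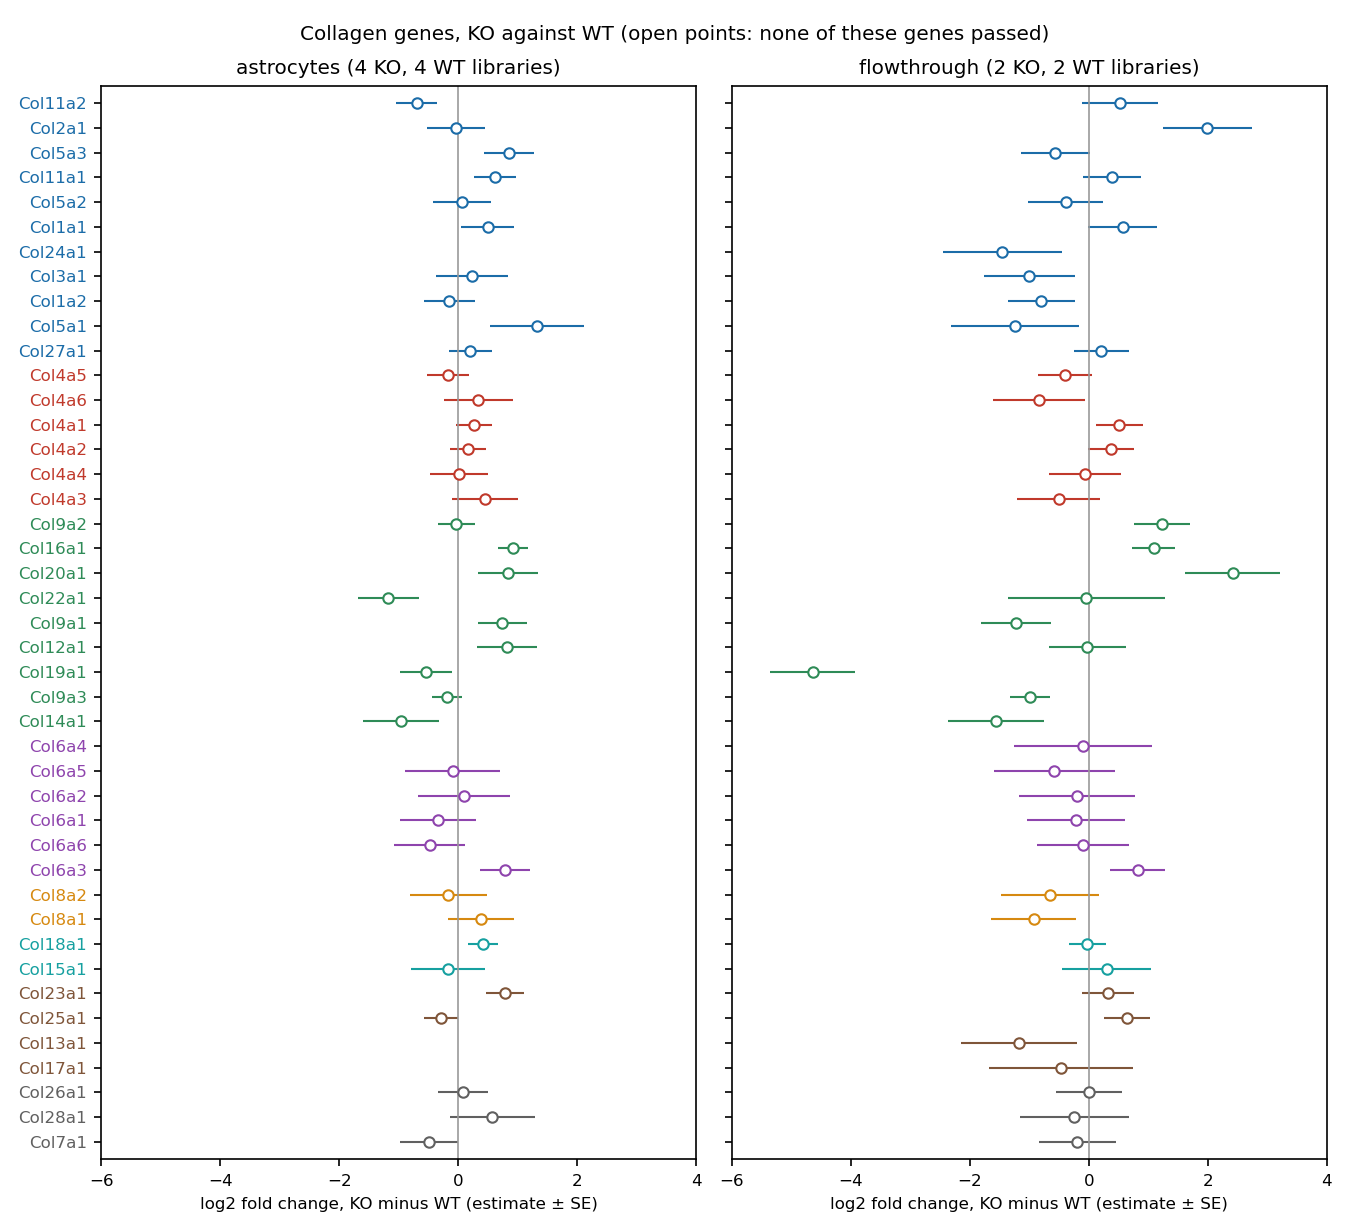
Log2 fold change of collagen genes, KO minus WT (x axis, the same in both panels; points are estimates and bars their SE), in astrocyte libraries on the left and flowthrough libraries on the right; all points are open because none passed an adjusted p of 0.05 in edgeR. Col19a1 in the flowthrough, at -4.64, lies apart from the rest.

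**Figure D5:**
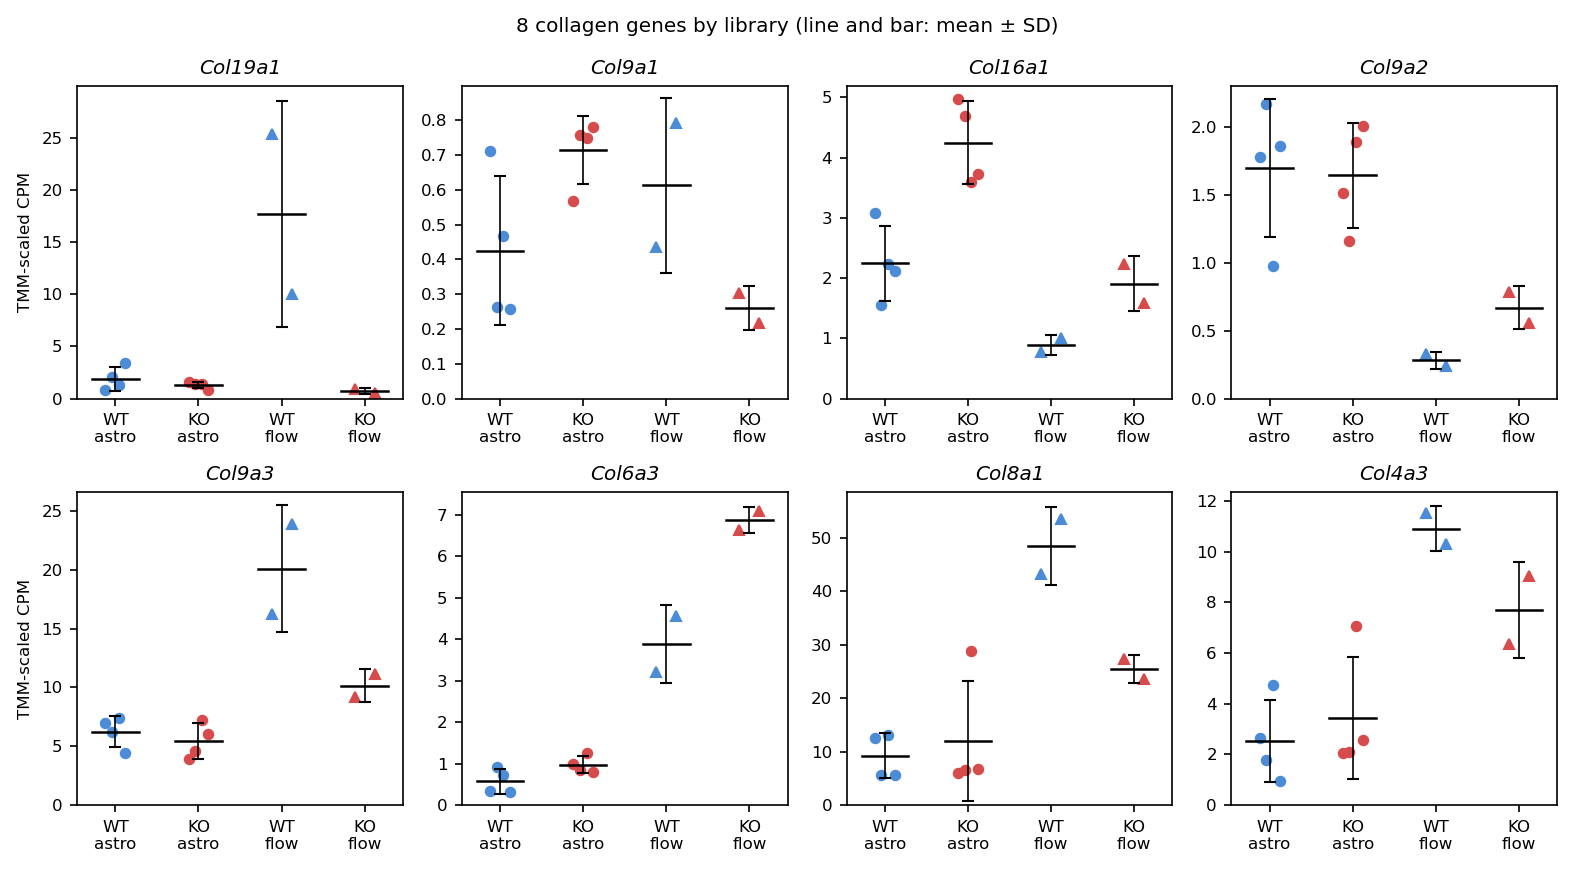
TMM-scaled CPM of 8 collagen genes in each library (points), with group mean (line) and SD (bar); n = 4 astrocyte and 2 flowthrough libraries a label. Col19a1 is high in the WT flowthrough libraries at 25.4 and 10.03 CPM, and Col8a1 in astrocytes has a single high library, KO 73 at 28.7 CPM.

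The DNA just before the start of Col16a1 and Col19a1, the genes with the smallest p in the astrocyte and flowthrough label comparisons, is printed next, on GRCm38.p6 from RefSeq. Capitals mark GGGCGG (GC box) and CCAAT letters on either strand. The Col16a1 stretch is chr4:130047590-130047839, plus strand, and the Col19a1 stretch chr1:24587473-24587687, minus strand.
Col16a1: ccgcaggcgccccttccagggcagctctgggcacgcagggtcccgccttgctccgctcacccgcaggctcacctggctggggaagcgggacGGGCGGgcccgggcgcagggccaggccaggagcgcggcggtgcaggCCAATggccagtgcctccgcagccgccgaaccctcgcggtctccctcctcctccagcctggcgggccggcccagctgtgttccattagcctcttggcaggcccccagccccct
Col19a1: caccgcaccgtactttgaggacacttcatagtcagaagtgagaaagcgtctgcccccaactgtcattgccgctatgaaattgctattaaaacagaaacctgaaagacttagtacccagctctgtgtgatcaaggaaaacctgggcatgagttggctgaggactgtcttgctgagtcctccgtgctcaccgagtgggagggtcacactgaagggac

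The Col16a1 stretch holds 1 GC box and 1 CCAAT box and is 75.6% G or C; the Col19a1 stretch holds neither and is 50.7% G or C. In the RefSeq windows of 300 bases around gene starts, 38 windows of 35 collagen genes matched by symbol. The E-box CACGTG, the letters that the clock factor Bmal1 and its partner Clock bind, was in 0 of the 38 on either strand and in 7.15% of all 32851 windows, and the variant CACGTT in 2 (Col4a4 and Col6a6) and in 4.69% of all. GGGCGG was in 23 of 38 (60.5%; 35.7% of all windows), CCAAT in 13 (34.2%; 37.4%) and TATAAA in 5 (13.2%; 13.6%). A match or its absence in these windows describes letters only.

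Genes that make, join, bind and break down collagen were examined as well, 84 in 6 lists, of which 83 were tested. Their counts are to be read beside the 49.2% of all genes called between the fractions, 24.4% lower and 24.8% higher, and the lists' own shares ran from 33.3% to 69.2%. Enzymes and chaperones of collagen folding were mixed between the fractions, with 9 of 20 called lower in astrocytes and 4 higher (median -0.37, and 0.00 over all genes). Those lower included P3h2, a prolyl 3-hydroxylase (-2.65 ± 0.40), Plod3, a lysyl hydroxylase (-1.47 ± 0.18), and Colgalt1, which adds galactose (-1.13 ± 0.18); the chaperone Serpinh1 was not called (-0.31 ± 0.26). Of 15 genes of propeptide processing and crosslinking, 4 were lower, with Pcolce, the enhancer of the C-propeptidase, at -1.88 ± 0.31 and fibronectin Fn1 at -1.28 ± 0.33, and 2 were higher, with that propeptidase, Bmp1, at 0.81 ± 0.18. Of 10 receptors, 5 were lower and none higher, led by the leukocyte receptor Lair1 (-3.53 ± 0.28), and followed by the integrin chain Itga10 (-1.05 ± 0.21) and the endocytic receptor Mrc2 (-1.90 ± 0.39).

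Basement membrane partners had 5 of 16 lower, among them the laminin chain Lamb1 (-1.55 ± 0.19) and nidogen Nid2 (-2.04 ± 0.29), and 3 higher, among them the laminin chain Lama2 (1.21 ± 0.20). Of 13 genes of collagen breakdown and its inhibitors, 6 were lower and 3 higher. The gelatinase Mmp9 (-4.81 ± 0.51) and the protease Fap (-2.53 ± 0.35) were lower, and the inhibitor Timp4, with 419 ± 86.7 CPM (SD, n = 8) in astrocyte libraries and 76.0 ± 30.2 (SD, n = 4) in flowthrough, was higher (adjusted p = 2.7e-05). Of 9 tested small proteoglycans, 3 were lower, Dcn (-1.09 ± 0.33), Ogn (-1.02 ± 0.38) and Podn (-1.82 ± 0.70), and none higher. With 1 library left out, in 12 fits, Dcn was called in 10, Ogn in 4 and Podn in 3 (adjusted p up to 0.110, 0.158 and 0.116).

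Between the labels, 1 of these genes was called in astrocytes, beside 0.232% of all 18527 genes. It was 1 of the 12 genes of collagen breakdown and its inhibitors tested there. Fewer of the listed genes were tested there than between the fractions. Mmp14, the membrane-bound metalloproteinase that cleaves fibrillar collagen, stood at 29.1 (mouse 60), 20.2 (62), 22.8 (73) and 28.8 CPM (132) with the KO label and at 13.1 (56), 12.0 (57), 11.8 (64) and 11.3 CPM (78) with the WT label. The labels did not overlap (1.08 ± 0.15; edgeR adjusted p = 0.031, and 2.6e-07 by DESeq2). The edgeR call was kept without KO 62 or KO 73 and lost without any other of the 8 libraries (adjusted p up to 0.15; the log2 fold change stayed between 0.996 and 1.17). In the flowthrough Mmp14 was at 0.66 ± 0.21 (adjusted p = 1). No gene of the 6 lists was called there or in the difference between fractions, beside 0.00476% and 0.0% of all genes.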

How the data were processed

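A deposited table for every library lists, per the file headers, the gene's identifier, its exon length and 3 measures. The deposited counts are whole numbers. The authors' CPM divides a count by the library total, and their RPKM divides that CPM by exon length in kilobases; both were recomputed from the counts (largest difference 5.1e-11 CPM) and only counts were tested. The tools named, with no role, per the submitters' processing notes, are STAR 2.5.1a, featureCounts 1.4.6-p5, Subread and bcl2fastq, and the build is GRCm38. Strand and multi-mapping settings: not given in the sources used here. Exons of 10 collagen genes overlap another gene (Col4a3 and C430014B12Rik by 563 bases, Col9a3 and Tcfl5 by 234), so their counts are uncertain to that extent.

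The test was that of edgeR 4.0.16 under R 4.3.3 (quasi-likelihood, two-sided, TMM, filterByExpr by group, Benjamini-Hochberg adjustment over all genes, called at an adjusted p under 0.05). For KO against WT in astrocytes the fit held 8 libraries and 18527 genes, with 6 residual degrees of freedom. The other comparisons used all 12 libraries and 4 group means (20997 genes, 8 residual degrees of freedom). Col10a1 was not tested in either, nor Col6a4, Col24a1, Col13a1 and Col17a1 among astrocyte libraries. Fold changes come from each comparison's own fit, and printed CPM from the factors of 12 libraries. The SE of an edgeR fold change is its size on the log2 scale divided by the square root of the test's F value. The fits were first tested on simulated data. Exact permutation tests used SciPy 1.17.1 in Python 3.11.15. The 4 mice with both fractions pair the libraries by animal; the deviations of a mouse's 2 libraries correlated at 0.155, 0.251, 0.352 and -0.0066. DESeq2 1.42.0 was an alternative, as were other scalings and filters, limma 3.58.1 with mouse as random effect, and leaving out libraries. A count of 0 allows up to 3 counts, or 0.0582 to 0.0775 CPM before TMM scaling, for counting error only. Replicates are separate mice.

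Classes and lists were chosen, like the genes themselves, with earlier results of these data known. Named genes are Col19a1, chain partners, the 3 highest genes per class, up to 3 per class and direction with the smallest p among those called (or the 5 with the smallest p where none passed), up to 3 per partner list with the smallest p, Arntl, Aldh1l1 and leading markers.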

Additional observations from a re-analysis of the deposited data

Results flagged for a closer look

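Over 39 collagen genes, 78 groups of 4 astrocyte libraries were searched for a library far from the other 3, by the ratio of gap to range. Such a library was found in 5 groups, close to the 1 in 20 that chance gives for normally distributed values. The share over all genes is not given here. Of the 5, 3 were the astrocyte library KO 73: Col8a1 at 28.7 CPM (others 5.97 to 6.66), Col4a3 at 7.05 CPM (others 2.04 to 2.56) and Col5a1 at 1.38 CPM (others 0.474 to 0.550). Among the 8 astrocyte libraries KO 73 also had the highest summed markers of choroid plexus (9420 CPM, the next at 5912), microglia (2924 and 1234), ependymal cells (907 and 610), border macrophages (427 and 134) and oligodendrocyte precursors (74.6 and 66.2), the lowest of astrocytes (10949 CPM) and neurons (1120 CPM), and, with WT 78, was one of the 2 libraries with Xist, at 2411 counts. Their part in these values was not tested. The others were Col2a1 in astrocytes KO 62 at 0.971 CPM (others 0.337 to 0.379) and Col9a1, lowest in astrocytes KO 60, at 0.569 CPM (others 0.748 to 0.782).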

How the results depend on the processing

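The 16 collagen genes called between the fractions were 12 to 19 with 1 library left out, 15 to 17 under other scalings, filters or DESeq2, 20 without KO 73 and WT 78, and 10 at an adjusted p under 0.01. With mouse as a replicate block they were 21, all 16 included; KO against WT among astrocytes called 0 collagen genes with mouse as a random effect, as in the flowthrough. The blocked fit changed no other collagen call. With 1 library left out, the fraction difference within WT gave 6 (without flowthrough WT 64) to 17 collagen genes and 3357 to 8887 of all genes, and within KO 1 (without flowthrough KO 132) to 12 (without astrocytes KO 73) and 774 to 6812. KO against WT astrocytes, all genes, gave 43 calls, 28 with total count scaling, 183 by DESeq2, 75 at an adjusted p under 0.1 and 12 to 37 with 1 library left out. KO against WT flowthrough gave 1 collagen gene (Col19a1) and 23 genes in all by DESeq2, 0 genes from the 4 flowthrough libraries alone, 0 with the mouse block and 0 to 5 with 1 library left out; the interaction gave 1 and 8 by DESeq2. The median of the FACIT genes between the fractions was 0.47, and -0.90 with genes under 1 CPM removed, which leaves fewer genes. None of the genes followed through the alternatives, the called ones included, changed the sign of its fold change. Class medians did: of 296 recomputed medians 35 changed sign, 32 of them by less than the spread between libraries and from a size of at most 0.25, and 3 by more, namely that FACIT median and, without KO 73 and WT 78, the KO minus WT medians of basement membrane (0.22 to -0.40) and short-chain genes (0.11 to -0.99). Of the calls of the genes followed through the alternatives, 58 were lost and 2 gained. Collagen genes outside that set, such as those gained with the mouse block, are not in these counts. For the other differences the cause was not tested.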
